A study of Rattus norvegicus with 18 samples.

Results

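The line difference in the 17 h effect of thyroid-stimulating hormone (TSH) was measured in rat thyroid cells as the change at 17 h in FRT/TSHR cells minus the change at 17 h in FRTL5 cells. For each probe set this was (FRT/TSHR at 17 h minus FRT/TSHR at basal) minus (FRTL5 at 17 h minus FRTL5 at basal), so it used 12 of the 18 arrays of the series, chosen by their titles, and all 8740 probe sets other than controls. FRT/TSHR is an established thyroid line that the labels call de-differentiated, and its name states that it carries the TSH receptor. FRTL5 is an established line of differentiated thyrocytes. The 4 groups were FRT/TSHR with 17 h of bovine TSH at 1 U/L, FRT/TSHR without treatment, FRTL5 with 17 h of bovine TSH at 0.1 U/L and FRTL5 without treatment, with 3 arrays each. FRT/TSHR cells were kept in Ham's F12 as modified by Coon, FRTL5 cells in TSH-free 5H medium for 5 days, and both lines then spent 12 h without serum. The line, the TSH dose and the medium therefore changed at the same time and cannot be told apart, and neither line had an untreated group at 17 h, so time and handling cannot be told apart from TSH. Values are log2 expression per probe set, and a line difference of 1 means that the fold change at 17 h in FRT/TSHR was 2 times that in FRTL5.

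TSH acts on thyroid follicular cells through a receptor that raises cyclic AMP. In a differentiated thyrocyte the hormone maintains iodide uptake and, together with growth factors such as insulin, drives cell division, which calls for new DNA, membrane lipid and sterol. FRTL5 cells keep iodide transport and thyroglobulin production and depend on TSH to grow, while FRT cells have lost most functions of the thyrocyte.

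The labels were checked against thyrocyte markers first. Tg, the gene of the hormone precursor thyroglobulin, stood at 4.20 ± 0.23 in FRT/TSHR at 17 h and 4.17 ± 0.19 at basal, against 10.57 ± 0.72 in FRTL5 at 17 h and 11.21 ± 0.70 at basal (log2, mean ± SD, n = 3 each). Foxe1, a transcription factor of thyroid development, was lower in FRT/TSHR than in FRTL5 by 1.79 at 17 h (means of 6.85 and 8.64). Tshr, the TSH receptor gene, read 6.72 in FRT/TSHR and 6.72 in FRTL5 at 17 h, but the labels do not say whether the introduced receptor is the rat one, which the rat probe set would read. The probe sets of Tshr disagree, since 2 others read 3.71 in FRT/TSHR and 7.48 in FRTL5, and 3.71 in FRT/TSHR and 5.34 in FRTL5, at 17 h, and the remaining one was lower in FRT/TSHR by 0.91. The summed log2 level of 18 leukocyte markers was 90.6 to 92.9 in FRT/TSHR and 94.0 to 94.4 in FRTL5 at 17 h, and 90.7 to 91.9 in FRT/TSHR and 93.7 to 94.9 in FRTL5 at basal. Of these 18, and of 11 C cell and neuroendocrine, 6 endothelial and 27 mesenchymal genes, 0 passed the test described next. The endothelial sum was 30.2 to 30.7 in FRT/TSHR at 17 h and 29.6 to 30.0 at basal, which do not overlap, against 29.6 to 30.2 in FRTL5 at 17 h and 29.7 to 30.9 at basal. The C cell sum was 49.5 to 51.6 in FRT/TSHR at 17 h and 50.7 to 51.6 at basal, against 50.8 to 51.9 in FRTL5 at 17 h and 50.4 to 50.9 at basal. The mesenchymal sum was 161.0 to 163.3 in FRT/TSHR at 17 h and 161.7 to 162.6 at basal, against 159.0 to 161.3 in FRTL5 at 17 h and 161.1 to 162.5 at basal. The part of these markers in the results was not tested. On the 3 FRTL5 arrays numbered 1 the beta-actin transcript read 1.13 to 1.22 higher at its 3' than at its 5' end (log2), against at most 0.28 on all other arrays, so counts without them are given as well.

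In limma with Benjamini-Hochberg adjustment over all probe sets, 69 of 8740 (0.789%) had a line difference at an adjusted p under 0.05, and 732 (8.38%) had an unadjusted p under 0.05. The sign was negative for 42 (0.481%), meaning a lower change in FRT/TSHR than in FRTL5, and positive for 27 (0.309%). The titles give a replicate number and do not state that same-numbered arrays were paired. With the number within a line taken as a block, the count was 365 (4.18%, 184 positive and 181 negative), which held all 69. On genes, each taken by its brightest probe set, 41 of 4736 passed (0.866%), 25 negative (0.528%) and 16 positive (0.338%), and with the block 217 (4.58%), 114 positive (2.41%) and 103 negative (2.17%). Another 15 genes passed only through a dimmer probe set, 3 probe sets carried several gene symbols and 4 carried none. Of the 69, 49 differed by at least 2-fold (11 positive and 38 negative).

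Most of the difference came from FRTL5. All 69 probe sets also passed in FRTL5 at 17 h against basal, where 311 of 8740 passed (3.56%; 143 or 1.64% upward and 168 or 1.92% downward), and 0 passed in FRT/TSHR (108 probe sets, 1.24%, had an unadjusted p under 0.05 there in limma, and 0 passed with the replicate block). The FRTL5 split was 142 upward and 97 downward without the FRTL5 arrays numbered 1, and 192 and 140 without the arrays numbered 1 of both lines. The FRTL5 change made up a median of 83.6% of the line difference, from 59.4% to 111.9%. Among the 42 negative probe sets the median change was -0.27 in FRT/TSHR and 1.26 in FRTL5, and among the 27 positive ones 0.11 and -0.84. These lists were picked for their difference, so the medians describe them and test nothing. Of the 143 probe sets that rose in FRTL5, 104 (72.7%) had a value below 0 in FRT/TSHR, where 46.2% of all probe sets did. Of the 168 that fell in FRTL5, 91 (54.2%) had a value above 0 in FRT/TSHR. That is near the share over all probe sets, since 46.2% of them lay below 0.

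**Figure D1:**
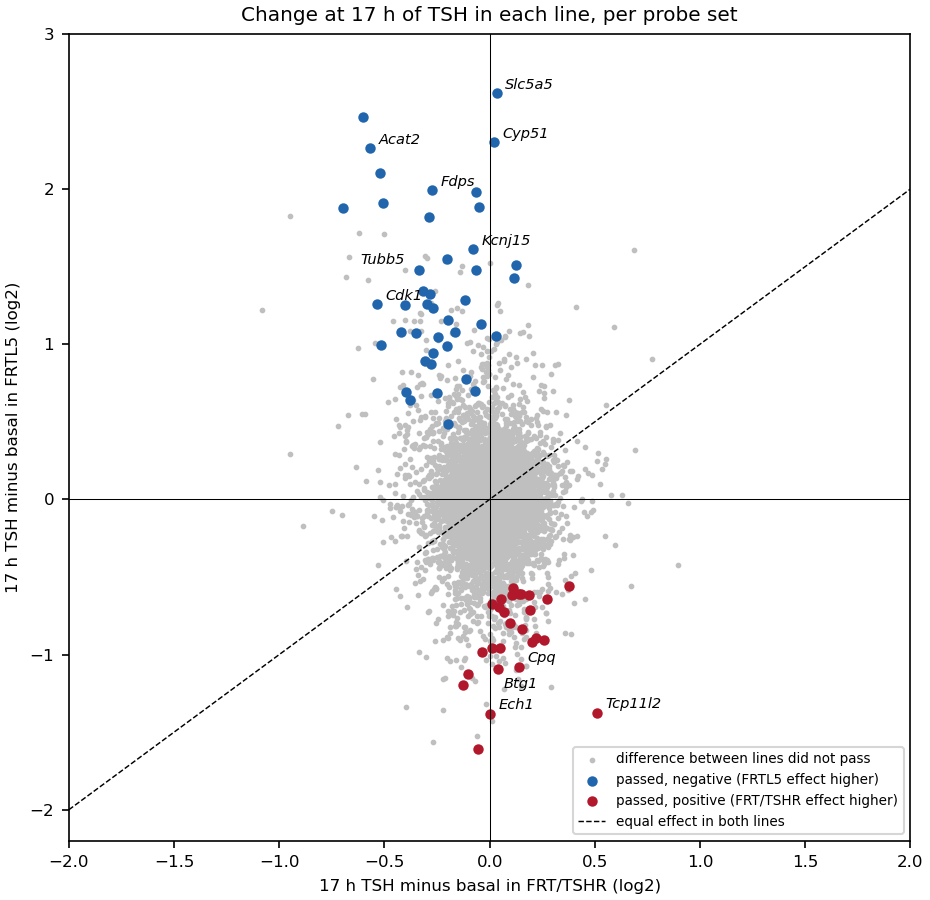
Change at 17 h of TSH against basal (log2) in FRT/TSHR (x axis) and in FRTL5 (y axis) for each of 8740 probe sets, with the 42 negative line differences in blue, the 27 positive ones in red and the dashed line marking equal change. The coloured points spread along the FRTL5 axis, for example Slc5a5 at 2.62 and Ech1 at -1.38, while their FRT/TSHR values are nearer to 0.

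The smallest adjusted p belonged to a gene of thyrocyte function. Slc5a5, the sodium-iodide symporter that carries iodide into the thyrocyte, read 5.75, 5.95 and 5.68 in FRT/TSHR at 17 h and 5.66, 5.93 and 5.69 at basal. In FRTL5 it read 9.14, 9.69 and 9.91 at 17 h and 6.73, 7.15 and 7.0 at basal. The FRT/TSHR arrays of both times overlap, whereas every FRTL5 array at 17 h lies above every basal one. The changes were 0.03 ± 0.18 in FRT/TSHR and 2.62 ± 0.18 in FRTL5 (SE), a 6.14-fold rise in FRTL5, and the line difference was -2.58 ± 0.26 (adjusted p = 0.000298). Without the FRTL5 arrays numbered 1 it was -2.69 ± 0.23.

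Kcnj15, an inwardly rectifying potassium channel, behaved in the same way. It had values of 5.82, 5.93 and 5.56 in FRT/TSHR at 17 h and 5.83, 5.97 and 5.73 at basal. Its FRTL5 values were 9.25, 9.05 and 9.15 at 17 h and 7.60, 7.82 and 7.20 at basal. The FRT/TSHR groups overlap and the FRTL5 groups lie more than 1 log2 unit apart. The line difference was -1.69 ± 0.23 (adjusted p = 0.00357). For both genes the distance between the lines widened with TSH: Slc5a5 was lower in FRT/TSHR by 3.79 at 17 h and by 1.20 at basal, and Kcnj15 by 3.38 and 1.69.

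Of the 13 measured genes of thyroid differentiation 0 passed in the positive and 2 in the negative direction, namely these 2, and the list had a median of -0.02, close to the 0.01 of all genes. Tg had a line difference of 0.67 ± 0.52 (adjusted p = 0.952), and its 4 probe sets ran from -0.97 to 0.67. The probe set at -0.97, opposite in sign to the brightest one, did not pass without the replicate block (adjusted p = 0.577) and passed with it (0.00518). The thyroid transcription factor genes Nkx2-1 (-0.04) and Foxe1 (0.10) and the receptor gene Tshr (-0.04) did not pass either. Pax8, a transcription factor that acts on the Slc5a5 and Tg genes, had a line difference of 0.87 ± 0.32 (adjusted p = 0.356, and 0.019 with the replicate block), opposite in sign to that of Slc5a5. Its values were 8.80, 8.63 and 8.55 in FRT/TSHR at 17 h and 8.55, 8.65 and 8.55 at basal, against 8.37, 9.23 and 9.38 in FRTL5 at 17 h and 9.44, 9.99 and 9.94 at basal. Among 22 genes of the cyclic AMP pathway and its transcriptional targets 0 passed in either direction, although a dimmer probe set of the phosphodiesterase gene Pde4b, whose product degrades cyclic AMP, had -1.31 ± 0.28 (adjusted p = 0.0404). That call was lost in 10 of the 12 fits that each left out 1 array. Other probe sets of Pde4b, at -0.23 and -0.40, did not pass.

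**Figure D2:**
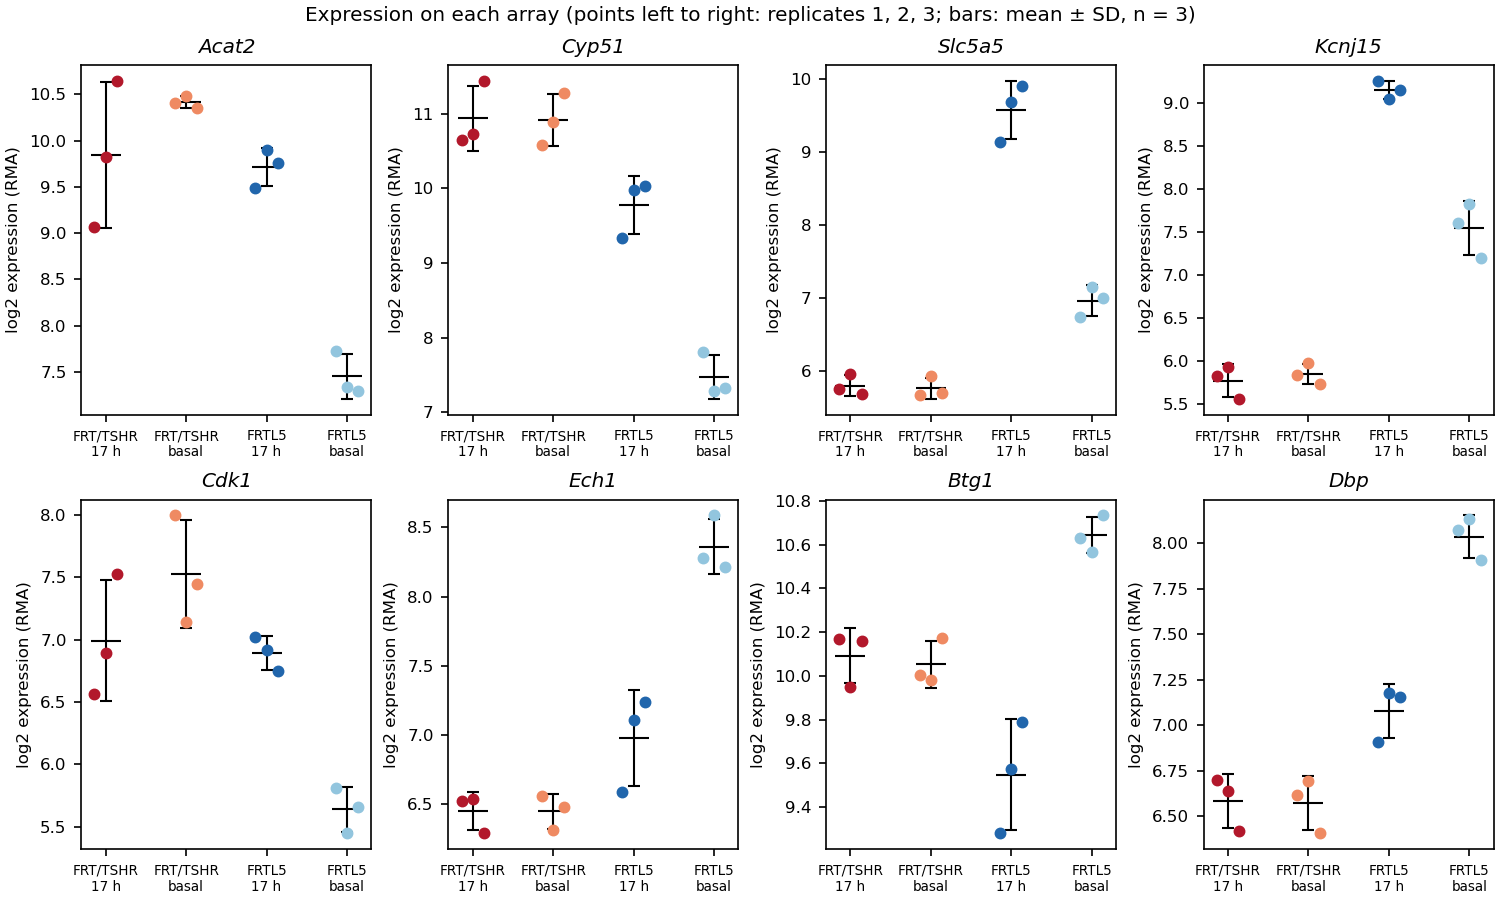
Log2 expression of 8 genes on each array in FRT/TSHR at 17 h and basal and in FRTL5 at 17 h and basal, with points for replicates 1, 2 and 3 and bars for mean ± SD (n = 3). Slc5a5 and Kcnj15 are high in FRTL5 at 17 h, Acat2, Cyp51 and Cdk1 are lowest in FRTL5 at basal, and Ech1, Btg1 and Dbp are highest there.

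Genes of cholesterol synthesis were among the most negative. Cells make sterol from acetyl-CoA, first through the mevalonate pathway to farnesyl pyrophosphate and squalene and then through ring closure and removal of methyl groups. Of 5 measured genes of the mevalonate pathway, 0 passed in the positive and 3 in the negative direction, with a median of -1.75, and all 5 values were negative. Of 9 genes between squalene and cholesterol 0 passed in the positive and 2 in the negative direction, with a median of -1.07, and all 9 values were negative. With the replicate block the counts were 4 of 5 and 7 of 9, without the FRTL5 arrays numbered 1 they were 3 of 5 and 5 of 9, and without the arrays numbered 1 of both lines 2 of 5 and 5 of 9. Both lists were chosen with results of these data known. Over all 4736 genes, 27 negative and 12 positive passed without the FRTL5 arrays numbered 1, and 24 and 8 without those of both lines.

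Acat2, which joins acetyl-CoA units at the entry to the pathway, had the largest difference of any gene. Its values were 9.07, 9.83 and 10.64 in FRT/TSHR at 17 h and 10.41, 10.48 and 10.35 at basal. In FRTL5 they were 9.49, 9.89 and 9.76 at 17 h and 7.73, 7.33 and 7.29 at basal. The FRT/TSHR arrays at 17 h spread widely around the tight basal group, and the FRTL5 groups do not overlap. The line difference was -2.83 ± 0.41 (adjusted p = 0.00402), made of -0.57 ± 0.29 in FRT/TSHR and a rise of 2.26 ± 0.29 in FRTL5. Its second probe set gave -3.07 ± 0.45.

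Fdps, the farnesyl pyrophosphate synthase, read 10.95, 11.26 and 11.24 in FRT/TSHR at 17 h and 11.52, 11.47 and 11.28 at basal, against 9.64, 10.57 and 10.14 in FRTL5 at 17 h and 8.31, 8.18 and 7.87 at basal. Every FRT/TSHR array at 17 h was below every basal one, by little, and every FRTL5 array at 17 h was above every basal one. The difference was -2.27 ± 0.27 (adjusted p = 0.00139), and of its other probe sets 1 passed (-2.11) and 1 did not (-1.88). Mvd, which decarboxylates mevalonate pyrophosphate, had -1.66 ± 0.37 (adjusted p = 0.0492), and that call was lost in 10 of the 12 fits that each left out 1 array. Idi1, the isomerase of isopentenyl pyrophosphate, missed the threshold at -1.75 ± 0.40 (adjusted p = 0.0553, and 0.00601 with the block).

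Cyp51, the lanosterol demethylase, read 10.64, 10.73 and 11.44 in FRT/TSHR at 17 h and 10.59, 10.89 and 11.27 at basal, against 9.33, 9.97 and 10.03 in FRTL5 at 17 h and 7.81, 7.28 and 7.33 at basal. The FRT/TSHR groups overlap fully and the FRTL5 groups do not overlap. Its difference was -2.28 ± 0.37 (adjusted p = 0.0104), of which 0.02 ± 0.26 was the FRT/TSHR change, and of its other probe sets 2 passed (-2.05 and -1.94) and 2 did not (-1.52 and -0.97). Hsd17b7, a sterol ketoreductase of the same stretch, had -1.50 ± 0.24 (adjusted p = 0.00746). Dhcr7, Nsdhl, Fdft1, Sqle and Lss had -1.60, -1.07, -0.91, -0.88 and -0.84 and did not pass, but did with the block, and Dhcr7, Fdft1 and Lss also passed without the FRTL5 arrays numbered 1. Msmo1, another gene of this list, passed only through a dimmer probe set, at -1.39 ± 0.26 (adjusted p = 0.0208). At basal, FRT/TSHR had more of the transcripts of Acat2, Cyp51, Fdps and Mvd than FRTL5, by 2.96, 3.44, 3.30 and 1.98 (log2), and at 17 h the distances were 0.13, 1.16, 1.04 and 0.33. Fewer expressing cells and less RNA per cell cannot be told apart in such bulk samples.

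Of 5 measured genes that regulate sterol supply 0 passed in either direction and the median was -0.10. Insig1, a sterol sensor of the endoplasmic reticulum, had -0.81 (adjusted p = 0.223), and without the FRTL5 arrays numbered 1 it was the 1 member that passed, at -1.17 (adjusted p = 0.0275). The sterol-regulated transcription factor gene Srebf1 had -0.49 (adjusted p = 0.921), and Srebf2 was not among the 5 measured genes. Among 10 genes of fatty acid synthesis and NADPH supply 0 passed in either direction, all 10 values were negative and the median was -0.62. With the block 4 passed, namely Me1 (malic enzyme, -1.63), Fasn (fatty acid synthase, -1.48), Acly (ATP citrate lyase, -1.41) and Acsl3 (an acyl-CoA synthetase, -0.99). A dimmer probe set of Me1 passed without the block, at -1.56 ± 0.31 (adjusted p = 0.0287). Without the FRTL5 arrays numbered 1, 2 of the 10 passed in the negative direction, Acly (-1.64) and Acsl3 (-1.25), and without the arrays numbered 1 of both lines 4 did. For Fasn the arrays numbered 1 stood far below the others in both lines. At 17 h they read 8.64 in FRT/TSHR, where the other replicates read 9.93 and 10.09, and 7.29 in FRTL5, where the others read 9.49 and 9.29.

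Promoters of 4 of the called genes are shown because members of the sterol and mitosis lists moved together. The 4 were chosen after their matches were seen, and the windows of Acat2 and Cyp51, 2 called genes of cholesterol synthesis, held 0 matches to any of the letters searched. Each run is 300 bases, 250 before and 50 after the start of the gene, 5' to 3' on the coding strand, from RefSeq on GRCr8. Fdps lies at chr2:176804767-176805066 on the minus strand, Hsd17b7 at chr13:84722705-84723004 on the minus strand, Cdk1 at chr20:19265043-19265342 on the plus strand and Top2a at chr10:84473044-84473343 on the minus strand. Capitals mark CCAAT or its reverse complement, the letters of the CCAAT box, and in Cdk1 and Top2a also TTTGAA or its reverse complement, the letters of the cell cycle homology region.
Fdps: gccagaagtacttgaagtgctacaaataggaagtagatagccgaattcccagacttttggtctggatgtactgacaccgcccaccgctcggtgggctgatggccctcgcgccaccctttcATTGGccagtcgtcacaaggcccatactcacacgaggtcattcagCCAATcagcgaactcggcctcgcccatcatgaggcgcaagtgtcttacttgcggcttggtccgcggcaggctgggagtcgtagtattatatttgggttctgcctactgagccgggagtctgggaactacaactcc
Hsd17b7: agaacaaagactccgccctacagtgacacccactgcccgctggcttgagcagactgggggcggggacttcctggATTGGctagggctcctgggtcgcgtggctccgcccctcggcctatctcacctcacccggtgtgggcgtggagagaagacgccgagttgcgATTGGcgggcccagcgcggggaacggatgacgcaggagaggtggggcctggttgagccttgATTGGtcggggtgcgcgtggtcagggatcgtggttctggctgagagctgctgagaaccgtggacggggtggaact
Cdk1: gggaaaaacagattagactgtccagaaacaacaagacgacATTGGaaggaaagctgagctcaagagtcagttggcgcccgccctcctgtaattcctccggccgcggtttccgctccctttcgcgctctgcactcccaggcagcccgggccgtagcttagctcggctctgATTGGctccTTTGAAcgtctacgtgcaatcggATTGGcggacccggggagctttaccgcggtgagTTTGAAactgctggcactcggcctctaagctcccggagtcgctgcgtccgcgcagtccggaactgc
Top2a: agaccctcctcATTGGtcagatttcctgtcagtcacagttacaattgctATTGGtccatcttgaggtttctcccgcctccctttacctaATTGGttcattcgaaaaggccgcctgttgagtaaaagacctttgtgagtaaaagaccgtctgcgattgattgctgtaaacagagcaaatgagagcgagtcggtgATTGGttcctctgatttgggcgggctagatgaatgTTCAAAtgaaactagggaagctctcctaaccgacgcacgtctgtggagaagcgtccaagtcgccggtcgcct
These windows held 2, 3, 3 and 4 matches to CCAAT, and those of Cdk1 and Top2a held 2 and 1 matches to TTTGAA, with no overlaps between matches. Over both strands, CCAAT was present in 9 of 12 promoters of the measured cholesterol synthesis genes and in 9 of 12 of the mitosis genes (75% each), in 9 of 16 of DNA replication (56.2%), and in 37.7% of all 27457 promoters. All promoters here include those of genes that the array did not measure, so they are not a matched base for the lists. TTTGAA was present in 7 of 12 mitosis promoters (58.3%) and 18.1% of all promoters. TTTNNCGC, letters of an E2F site, was present in 6 of 16 DNA replication promoters (37.5%) and 5.19% of all promoters. Over genes with any called probe set, CCAAT was present in 63.3% of 30 promoters with a negative and 33.3% of 18 with a positive difference. For TTTGAA these shares were 23.3% and 5.56%, and for TTTNNCGC 16.7% and 11.1%. TCACNCCAC, a form of the sterol response element, and TGACGTCA, the cyclic AMP response element, were present in 0 of the 12 cholesterol promoters, and in 1.13% and 1.91% of all promoters. A match is a run of letters and not a measured binding site, and no match says only that these letters are not in the window. Where several starts were listed for a gene, the first was used.

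DNA replication genes were lower in change in FRT/TSHR as well. Of 17 measured members 0 passed in the positive and 2 in the negative direction, 16 values were negative and the median was -1.11. With the replicate block 11 of 17 passed, all negative, and without the arrays numbered 1 of both lines 5 did, all negative. Without the FRTL5 arrays numbered 1 only 2 of the 17 passed, Tyms and Pcna, both negative. Both called genes act on the supply of primers and precursors. Tyms, the thymidylate synthase, had values of 4.20, 4.62 and 4.56 in FRT/TSHR at 17 h and 4.83, 4.85 and 4.51 at basal, against 5.39, 5.40 and 5.26 in FRTL5 at 17 h and 4.60, 4.22 and 4.41 at basal. The FRT/TSHR groups overlap through basal replicate 3 and the FRTL5 groups do not. Its line difference was -1.21 ± 0.20 (adjusted p = 0.0111).

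Prim1, the catalytic subunit of primase, had -1.42 ± 0.27 (adjusted p = 0.0233), lost without the FRTL5 arrays numbered 1 (adjusted p = 0.0684). Subunits of the replicative helicase had larger values that did not pass, but did with the block, Mcm6 -2.77, Mcm5 -2.23 and Mcm7 -1.55. Pcna, the sliding clamp of DNA polymerase, had -2.21 on its brightest probe set (adjusted p = 0.0937) and -2.57 ± 0.46 on another that passed (adjusted p = 0.0174). For Mcm5 the values were 5.94, 6.98 and 7.51 in FRT/TSHR at 17 h and 7.61, 7.32 and 7.51 at basal, against 7.58, 6.92 and 6.85 in FRTL5 at 17 h and 5.52, 5.58 and 5.55 at basal. The FRT/TSHR group at 17 h spread widely, with replicate 1 lowest, and the FRTL5 groups did not overlap.

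The genes of mitosis showed the same sign. Of 14 members 0 passed in the positive and 2 in the negative direction, 13 values were negative and the median was -0.72, and 4 passed with the block. Without the FRTL5 arrays numbered 1, and without those of both lines, 0 of the 14 passed in limma. Cdk1, whose kinase starts mitosis, read 6.56, 6.89 and 7.52 in FRT/TSHR at 17 h and 8.0, 7.14 and 7.44 at basal. In FRTL5 it read 7.02, 6.92 and 6.75 at 17 h and 5.81, 5.45 and 5.66 at basal. The FRT/TSHR groups overlap, and FRTL5 at 17 h came up to the FRT/TSHR level. The difference was -1.79 ± 0.36 (adjusted p = 0.0306), made of -0.53 ± 0.26 in FRT/TSHR and a rise of 1.26 ± 0.26 in FRTL5, and the call was lost in 9 of the 12 fits that each left out 1 array.

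Top2a, the topoisomerase that untangles sister chromatids, had -1.50 ± 0.33 (adjusted p = 0.0473), and its 2 other probe sets gave -1.56 and -1.27 without passing. The call of Top2a was lost in 10 of the 12 fits that each left out 1 array. Plk4, which starts centriole duplication, and Racgap1, which acts in cytokinesis, had -2.12 and -1.60 and did not pass, but did with the block. The cyclin gene Ccnb1 (-0.54) and the mitotic kinase genes Plk1 (-0.31) and Aurkb (-0.48) did not pass. None of the 12 G1 cyclins and CDK inhibitors passed in either direction, and their median was -0.09.

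The replicate pairs of FRT/TSHR were not alike for these genes. Over the 17 replication genes the median change of 17 h minus basal was -1.02 in the pair numbered 1, -0.08 in that numbered 2 and 0.09 in that numbered 3, and 17, 12 and 3 genes were lower at 17 h. The FRTL5 pairs had medians of 0.79, 0.88 and 0.85. For the 14 mitosis genes the FRT/TSHR medians were -0.84, -0.27 and 0.12, and for the 5 mevalonate genes -0.82, -0.29 and 0.29. In each of these lists the FRT/TSHR pair numbered 1 had the most negative median and the pair numbered 3 a positive one. Over all 42 negative probe sets the FRT/TSHR medians were -0.55, -0.22 and 0.06, against 0.05, 0.00 and -0.01 over all probe sets, and the FRTL5 medians were 1.13, 1.19 and 1.40. In all 69 probe sets the 3 pair changes of FRT/TSHR did not overlap those of FRTL5, as in 18.6% of all probe sets. The 69 were picked for their difference on these same arrays, so this describes them and tests nothing.

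**Figure D3:**
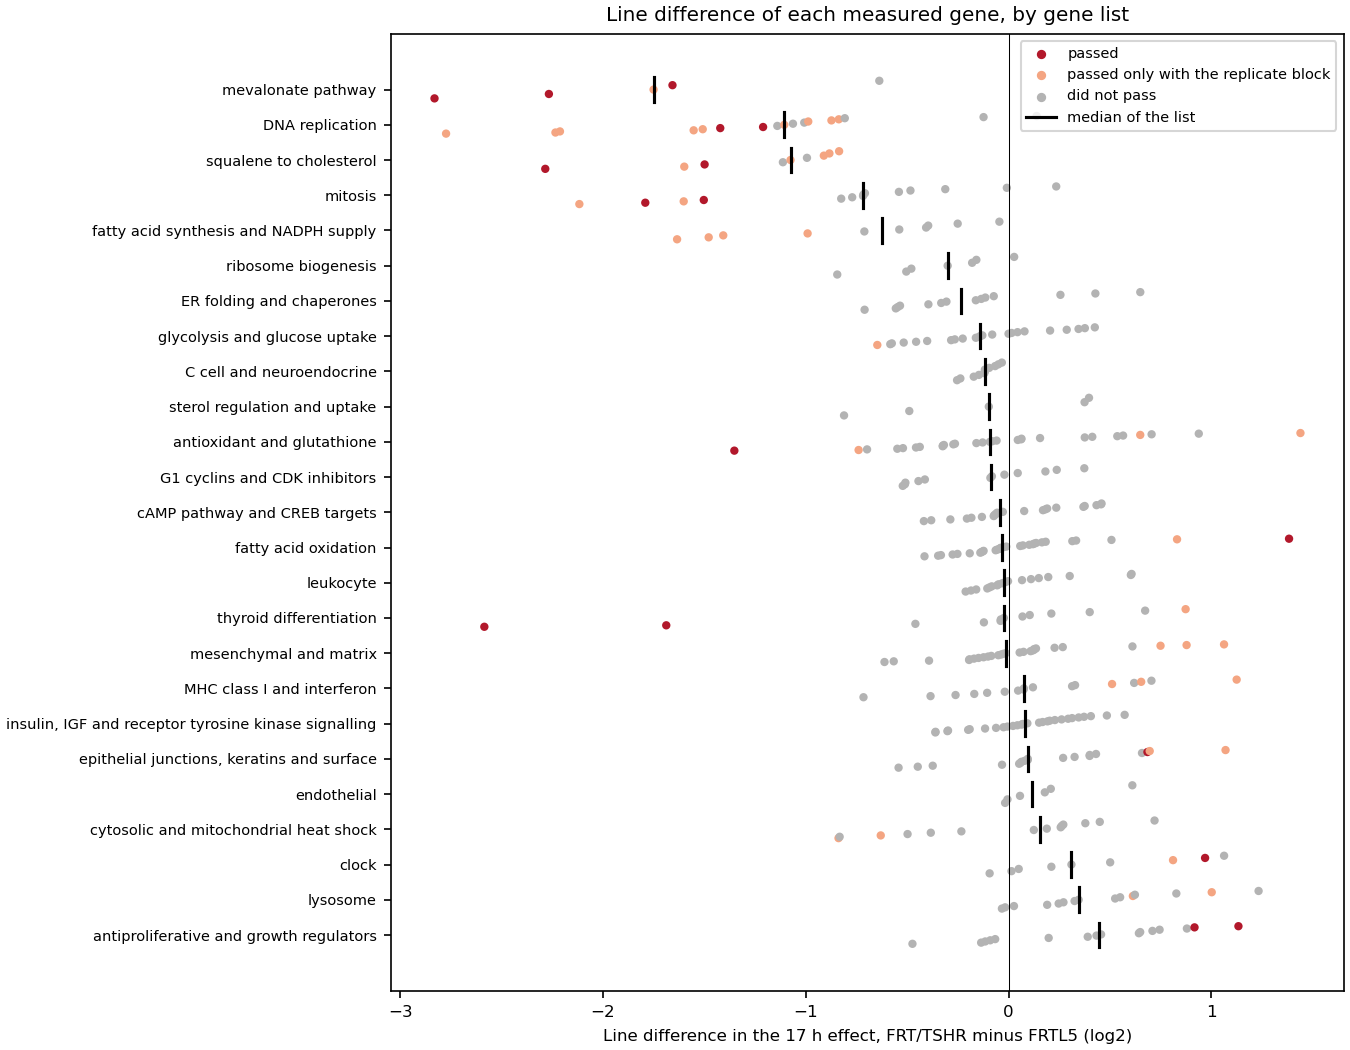
Line difference in the 17 h effect (FRT/TSHR minus FRTL5, log2) of every measured gene in 25 gene lists, ordered by the list's median (black bar), with genes that passed in red and those that passed with the replicate block but not without it in orange. The lists of cholesterol synthesis, DNA replication and mitosis lie to the left, at medians of -1.75 to -0.72, and the antiproliferative and lysosome lists to the right, at 0.45 and 0.35.

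The negative calls outside these lists were of varied function. Ahcy, which hydrolyses S-adenosylhomocysteine, and Mthfd1, a folate enzyme of one-carbon transfer, had -1.40 ± 0.24 and -1.29 ± 0.22 (adjusted p = 0.013 for each). Tkt, the transketolase of the pentose phosphate pathway, had -1.24 ± 0.20 (adjusted p = 0.00746). These 3 kept their calls in all 12 fits that each left out 1 array. Dnmt1, the maintenance DNA methyltransferase, had -1.65 ± 0.33 (adjusted p = 0.0285), and H2ax, a histone variant that marks DNA breaks, -1.51 ± 0.30 (adjusted p = 0.0285), and both lost them in 7 of 12. Without the FRTL5 arrays numbered 1, H2ax had -1.45 (adjusted p = 0.0519). Another probe set of Dnmt1 gave -0.56 and did not pass (adjusted p = 0.745).

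Tubb5, a beta-tubulin whose sequence resembles that of its paralogs, had -1.81 ± 0.34 (adjusted p = 0.0211), and a second probe set gave -1.61 (adjusted p = 0.0656). Ddah1, which degrades methylated arginines, had -1.61 ± 0.29 (adjusted p = 0.0174), and Rrbp1, a ribosome-binding protein of the endoplasmic reticulum, -1.54 ± 0.29 (adjusted p = 0.0208). Gpx2, a glutathione peroxidase, was the only called member of 29 antioxidant genes, at -1.35 ± 0.26 (adjusted p = 0.0233), while without the arrays numbered 1 of both lines 2 of the 29 passed in the positive and 0 in the negative direction. Its levels were 9.99, 9.94 and 10.47 in FRT/TSHR at 17 h and 10.16, 10.35 and 10.49 at basal, against 8.67, 8.72 and 8.80 in FRTL5 at 17 h and 7.81, 7.68 and 7.24 at basal. FRT/TSHR stayed above FRTL5 at both times. Nxt1, Dnph1, Fam111a, Kcnk1 and Ninj1 completed the negative genes, at -1.19 to -0.68, and all 5 missed the threshold without the FRTL5 arrays numbered 1.

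On the positive side stood genes that fell in FRTL5 and whose change in FRT/TSHR did not pass. Btg1, an antiproliferative gene, read 10.17, 9.95 and 10.16 in FRT/TSHR at 17 h and 10.00, 9.98 and 10.17 at basal. In FRTL5 it read 9.28, 9.58 and 9.79 at 17 h and 10.63, 10.57 and 10.73 at basal. FRTL5 lay above FRT/TSHR on every basal array and below it on every 17 h array. The difference was 1.13 ± 0.19 (adjusted p = 0.0111), with changes of 0.04 ± 0.13 in FRT/TSHR and -1.10 ± 0.13 in FRTL5. Its second probe set gave 1.35 (adjusted p = 0.111).

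Mxi1, whose product binds Max and opposes Myc, read 7.69, 7.49 and 7.91 in FRT/TSHR at 17 h and 7.34, 7.40 and 7.55 at basal, against 7.32, 7.48 and 7.50 in FRTL5 at 17 h and 8.07, 8.10 and 8.06 at basal. FRTL5 at basal was highest on every array, and the other groups overlap one another. The difference was 0.92 ± 0.16 (adjusted p = 0.0151), with a value of 0.27 ± 0.12 in FRT/TSHR that did not pass. Another probe set of Mxi1 gave 0.51 and did not pass (adjusted p = 0.702). Of 16 measured antiproliferative and growth-regulating genes, Btg1 and Mxi1 were the 2 that passed in the positive direction and 0 passed in the negative one, and without the arrays numbered 1 of both lines 0 passed in either. Their list had 11 positive values and a median of 0.45. Its members Gadd45a, a stress-induced growth arrest gene, and Klf6, a zinc finger factor, had 0.88 and 0.75 and did not pass.

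Ech1, a dienoyl-CoA isomerase of fatty acid oxidation, read 6.52, 6.54 and 6.29 in FRT/TSHR at 17 h and 6.56, 6.31 and 6.48 at basal, against 6.59, 7.11 and 7.24 in FRTL5 at 17 h and 8.28, 8.59 and 8.21 at basal. The FRT/TSHR groups overlap fully, and FRTL5 at 17 h came down towards them. The difference was 1.38 ± 0.27 (adjusted p = 0.0249) and was lost without the FRTL5 arrays numbered 1 (1.23, adjusted p = 0.0591). Ech1 was the 1 called member of 30 fatty acid oxidation genes, whose median was -0.03. Hsd17b4, a bifunctional enzyme of peroxisomal oxidation, had 0.83 and did not pass, but did with the block.

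Dbp, a transcription factor of the circadian output, read 6.70, 6.64 and 6.42 in FRT/TSHR at 17 h and 6.62, 6.69 and 6.41 at basal, against 6.91, 7.17 and 7.15 in FRTL5 at 17 h and 8.07, 8.13 and 7.91 at basal. The FRT/TSHR values overlap almost point for point and the FRTL5 groups do not overlap. The difference was 0.97 ± 0.17 (adjusted p = 0.014, and 0.0541 without the FRTL5 arrays numbered 1). A dimmer probe set of Dbp gave 0.71 and did not pass (adjusted p = 0.285), but did with the block. Of 9 clock genes Dbp was the 1 that passed, 8 values were positive and the median was 0.31. Nr1d2 and Per2, repressors within the clock, had 1.06 and 0.81, and of these Per2 passed with the block.

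Of the called genes, Cpq, a carboxypeptidase, had the largest distance between the lines, with 4.87, 4.83 and 4.70 in FRT/TSHR at 17 h and 4.70, 4.66 and 4.62 at basal, against 9.87, 10.11 and 9.78 in FRTL5 at 17 h and 10.92, 10.90 and 11.16 at basal. FRTL5 fell by 1.08 and stayed far above FRT/TSHR, and the difference was 1.22 ± 0.17 (adjusted p = 0.00357). All these FRT/TSHR values of Cpq lay below the lowest array median (5.47), where a fall may be hard to see. Whether Cpq was above background in FRT/TSHR was not tested. Golgb1, the Golgi matrix protein giantin, had 1.16 ± 0.20 (adjusted p = 0.0119), and Itm2b, an integral membrane protein, 1.12 ± 0.20 (adjusted p = 0.0151). A dimmer probe set of Golgb1 gave 1.08 and did not pass (adjusted p = 0.0734), but did with the block. Psen2, a catalytic subunit of gamma-secretase, had 0.80 ± 0.15 and Spint2, an inhibitor of serine proteases on epithelia, 0.69 ± 0.13 (adjusted p = 0.0174 and 0.0189, and 0.0519 and 0.0504 without the FRTL5 arrays numbered 1). Spint2 was the 1 called gene of 19 epithelial genes, whose median was 0.10.

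RT1-CE12, a class I histocompatibility gene of a family of near-identical copies among which the probe set may not tell, had 0.69 ± 0.15 (adjusted p = 0.0492). Its call was lost in 11 of the 12 fits that each left out 1 array. Without the FRTL5 arrays numbered 1 its adjusted p was 0.107. Of 17 other class I and interferon genes 0 passed in either direction and the median was 0.08, but B2m, the light chain of class I molecules, had 1.13 and passed with the block. Among 15 lysosomal genes 0 passed in either direction, 13 values were positive and the median was 0.35, and Ctsb, a lysosomal protease, and Lamp1, a membrane protein of the lysosome, passed with the block at 1.00 and 0.61. Tcp11l2 had the largest positive difference, 1.88 ± 0.39 (adjusted p = 0.0378), with FRT/TSHR values of 6.32, 5.50 and 5.68 at 17 h and 4.93, 5.67 and 5.37 at basal, and FRTL5 values of 6.35, 6.36 and 6.05 at 17 h and 8.26, 7.14 and 7.48 at basal. Replicate 1 stood apart in FRT/TSHR at both times and in FRTL5 at basal, but not in FRTL5 at 17 h. The call of Tcp11l2 was lost without the FRTL5 arrays numbered 1 (1.62, adjusted p = 0.0519) and in 8 of the 12 fits that each left out 1 array. The other called genes, Tcta, Neurl2, Cep95, Traf3ip2 and Pygb, ran from 0.70 to 0.99, and of these Neurl2 and Cep95 passed without the FRTL5 arrays numbered 1. Another probe set of Pygb gave 0.24 and did not pass (adjusted p = 0.998).

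Among the genes called only through a dimmer probe set, S100a1, a calcium-binding protein, had the smallest adjusted p, at 1.00 ± 0.14 (adjusted p = 0.00371). The transcription factor gene Maf had 1.55 ± 0.34, Lrpap1, a chaperone of lipoprotein receptors, 1.07 ± 0.20, and the lysosomal protease gene Ctsl 0.89 ± 0.20. Psmb5, a catalytic subunit of the proteasome, passed on 2 probe sets, at -0.94 ± 0.16 and -1.02 ± 0.22, and Psmb3, another of its subunits, had -0.89 ± 0.20. Phgdh, the first enzyme of serine synthesis, had -1.17 ± 0.23, and Bcl2, an inhibitor of apoptosis, 0.79 ± 0.18. The brightest probe set of each of these genes did not pass. In FRT/TSHR the means at 17 h and basal were 3.82 and 3.88 for Maf, 3.25 and 3.18 for Bcl2, and 5.14 and 5.09 for S100a1. These lay below the lowest array median (5.47), where a fall may be hard to see. Of the 12 fits that each left out 1 array, the call of Maf was lost in all 12 (highest adjusted p = 0.128), those of Ctsl, Psmb3 and Bcl2 and 1 of Psmb5 in 10, that of Phgdh in 7 and that of Lrpap1 in 4. S100a1 and the other probe set of Psmb5 lost theirs in 0.

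Lists with 0 called genes in either direction also included 14 genes of protein folding in the endoplasmic reticulum (median -0.23), 14 heat shock genes (0.16), 23 of glycolysis and glucose uptake (-0.14), 7 of ribosome biogenesis (-0.30) and 28 of insulin, IGF and receptor tyrosine kinase signalling (0.08). With the block the mitochondrial chaperone genes Hspd1 and Hspe1 and the glycolytic gene Pgk1 passed, at -0.84, -0.63 and -0.65. The C cell and neuroendocrine list had 11 negative values of 11, all small, from -0.25 to -0.03.

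For most of the called probe sets the lines were closer to each other at 17 h than at basal. Among the 42 negative ones FRT/TSHR stood above FRTL5 in 20 at 17 h and in 36 at basal, and the median distance was -0.22 at 17 h and 1.24 at basal (FRT/TSHR minus FRTL5, log2). The distance narrowed in 25 of them and widened in 17. Among the 27 positive ones FRT/TSHR stood above FRTL5 in 10 at 17 h and 2 at basal, with median distances of -0.34 and -1.15, and the distance narrowed in 23 and widened in 4. The basal arrays enter both the line difference and the basal distance, so they are not independent. The share of all probe sets whose distance narrowed was not counted, so narrowing cannot be called particular to the called ones. At 17 h Tubb5, Dnmt1, H2ax, Hsd17b7, Tyms and Top2a were lower in FRT/TSHR by 0.80 to 1.10, whereas at basal they were higher by 0.32 to 0.87.

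**Figure D4:**
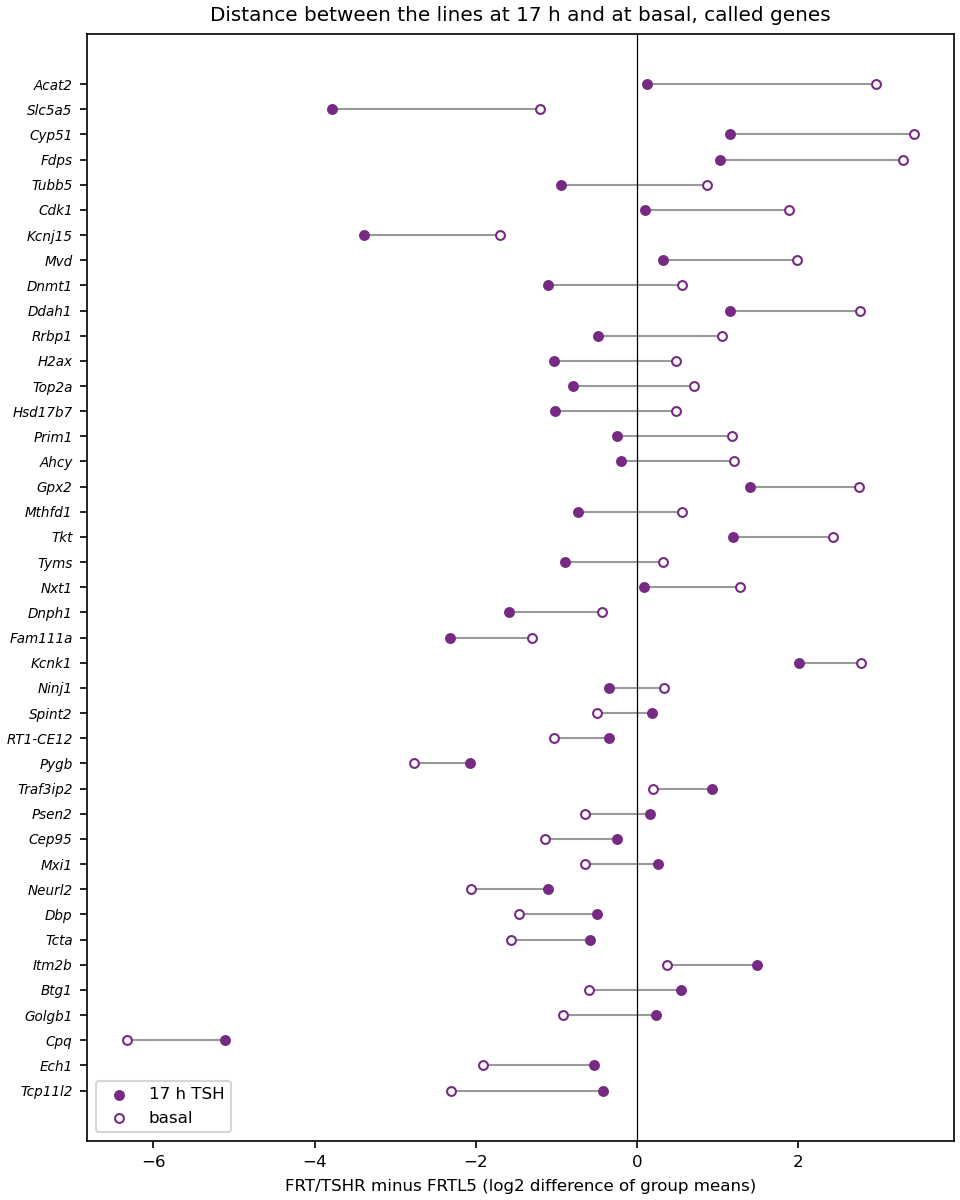
FRT/TSHR minus FRTL5 (log2 difference of group means) at 17 h of TSH (filled) and at basal (open) for the 41 called genes, ordered by line difference with the most negative at the top. Most lines run towards 0 or across it, while Slc5a5 and Kcnj15 run away from it, to -3.79 and -3.38 at 17 h.

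Another comparison used the 30 min groups of both lines (3 arrays each, the same doses) in their place. In it 35 of 8740 probe sets (0.4%) had a line difference in the change between 30 min and 17 h, 16 positive and 19 negative, and 306 with the replicate block. It shares the 17 h arrays with the main comparison. Of the 42 negative probe sets of the main comparison 16 passed here, and of the 27 positive ones 6 did, so most did not. Slc5a5 had -2.64, Acat2 -2.63, Cyp51 -2.75, Fdps -2.02, Kcnj15 -1.72, Btg1 1.54 and Ech1 1.36, and all of these passed, while Cdk1 (-1.41, adjusted p = 0.133) did not. Mvd, Dnmt1, Prim1, Mxi1 and Cpq did not pass either. At 30 min itself the line difference from basal had a median of -0.29 over the 42 and 0.24 over the 27, and it was 0.06 for Slc5a5 and 0.04 for Kcnj15. The 42 and the 27 were picked with the same basal arrays, so these medians describe them and test nothing.

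How far single arrays carried the calls was read from 12 fits that each left out 1 array. In all 12, 27 of the 69 probe sets and 20 of the 41 genes passed, among them Slc5a5, Acat2, Fdps, Cyp51, Hsd17b7, Kcnj15, Tyms, Btg1, Mxi1, Dbp and Cpq. The total count ran from 33, without FRT/TSHR at 17 h replicate 1, to 83, without FRT/TSHR at 17 h replicate 3. It was 40 without FRTL5 basal replicate 3, 34 and 39 without FRTL5 at 17 h replicates 2 and 3, 42 and 37 without FRT/TSHR basal replicates 1 and 3, and 35 without FRT/TSHR at 17 h replicate 2. Without the 3 FRTL5 arrays numbered 1 it was 70 (18 positive and 52 negative), of which 38 were among the 69, and 23 of the 41 genes passed. Just inside the threshold lay probe sets of Psmb3 and Pfkfb2 (adjusted p = 0.0492 each), and just outside it Tfrc, the transferrin receptor (-1.88, adjusted p = 0.0528), and a second probe set of Dhcr7 (-1.86, adjusted p = 0.0548).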

How the data were processed

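The authors deposited log2 expression values per probe set, made with RMA per the submitters' processing notes (background correction, normalization across arrays and probe summary). RMA settings, the array's genome build and an aligner are not given in the sources used here. Total RNA (10 µg) was made into biotin-labelled cRNA, per the labels. Scanner files were not used here, so detection above background was not measured, and the number of arrays limits the precision.

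Of 8799 probe sets 59 controls were left out. The platform annotation gave 1 symbol to 7006, several to 308 and none to 1426, and 6985 were matched to GRCr8. Each of 4736 genes was taken by its brightest probe set (highest mean over all arrays), and 1565 genes had several. Group means of all 6 groups were fitted to 18 arrays in limma 3.58.1 (R 4.3.3) with lmFit and eBayes, two-sided, with Benjamini-Hochberg adjustment over 8740 probe sets and a threshold of 0.05. Errors of differences are SE.

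Replicates are separate samples per the labels. Same-numbered 17 h and basal arrays of a line deviated together (r = 0.43, 0.49 and 0.35 in FRT/TSHR and 0.69, 0.39 and 0.41 in FRTL5), so the number within the line was the replicate block. Between the lines, same-numbered arrays had r = 0.32, 0.40 and 0.18 at 17 h and 0.35, 0.12 and -0.0025 at basal. The titles state no pairing. At most 0.0229% of values were identical between arrays.

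Named were the 15 largest called genes at each end, 5 given markers, thyroid genes and up to 4 members per list by p. Mthfd1, Ahcy, Tkt, Mcm6, Mcm7, Pcna and some others outside that rule, and all dimmer probe sets, were chosen after their values were seen. Members and lists were chosen with earlier results of these data known. Some genes are not reported here. On data simulated for this comparison over 8740 probe sets, 68 of 100 differences of 1 log2 unit and 95 of 100 of 2 log2 units were recovered, and 14 unchanged probe sets were called. The simulated noise was independent between arrays and between probe sets, and each change was placed in FRTL5 at 17 h. Same-numbered real arrays of a line deviated together, so these counts need not hold for the real data.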

Additional observations from a re-analysis of the deposited data

Results flagged for a closer look

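Among the genes named by the rule, the test of the difference between lines picked out these 33, each with its line difference at 17 h (FRT/TSHR change minus FRTL5 change, log2, limma adjusted p under 0.05). The negative ones were Acat2 (-2.83), Slc5a5 (-2.58), Cyp51 (-2.28), Fdps (-2.27), Tubb5 (-1.81), Cdk1 (-1.79), Kcnj15 (-1.69), Mvd (-1.66), Dnmt1 (-1.65), Ddah1 (-1.61), Rrbp1 (-1.54), H2ax (-1.51), Top2a (-1.50), Hsd17b7 (-1.50), Prim1 (-1.42), Gpx2 (-1.35) and Tyms (-1.21). The positive ones were Spint2 (0.69), RT1-CE12 (0.69), Pygb (0.70), Traf3ip2 (0.74), Psen2 (0.80), Cep95 (0.90), Mxi1 (0.92), Neurl2 (0.95), Dbp (0.97), Tcta (0.99), Itm2b (1.12), Btg1 (1.13), Golgb1 (1.16), Cpq (1.22), Ech1 (1.38) and Tcp11l2 (1.88). For each of them the change passed in FRTL5 and did not in FRT/TSHR.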

How the results depend on the processing

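The count of line differences at 17 h (69) was 365 with the replicate block within a line, 148 with a block shared by both lines, 22 with only the arrays compared in the fit, 210 with array weights and 13 at an adjusted p under 0.01. Leaving out 1 array gave 33 to 83. The split moved to 35 positive and 30 negative with a linear offset of 50 and, without the arrays numbered 1 of both lines, to 11 and 46 (57 in all, 25 of the 69 among them). Quantile normalization (91), median centring (52), means of at least 6 (87) or 7 (76) and eBayes with trend and robust (53) stayed within 1.5 times. For FRTL5 at 17 h (311) the counts were 867 and 508 with the blocks, 205 with means of at least 7, 96 with only the arrays compared, 600 with weights, and 152 to 253 leaving out 1 array, and its split of 143 upward and 168 downward was 142 and 97 without the FRTL5 arrays numbered 1 and 192 and 140 without those of both lines. For FRT/TSHR every alternative run gave 0. For the change from 30 min to 17 h (35) they were 306 and 78 with the blocks, 53 with quantile normalization, 10 with only the arrays compared, 150 with weights, 86 and 110 without the arrays numbered 1 of FRTL5 or of both lines, and 13 to 57 leaving out 1 array. Of the alternative values of single named genes, 2591 stayed on their side of the threshold, 120 became calls, 184 lost theirs and 0 reversed; the mean of all probe sets of a gene lost Neurl2 and Pygb. The cause of these moves was not tested.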
